A study of Homo sapiens with 4 samples.

Results

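The 10 genes described here encode melanin-forming enzymes and proteins of the melanosome, the pigment organelle. They were chosen by name (TYR, TYRP1, DCT, PMEL, MLANA, GPR143, SLC45A2, SLC24A5, OCA2 and GPNMB), and all 10 were found by identifier among the 11650 genes with a value. RNA was sequenced from 92.1, an established human cell line derived from uveal melanoma, which arises from melanocytes of the eye, in 2 libraries of a resistant derivative (Res) and 2 libraries of the parental line (Ctrl). The labels name neither the agent to which the Res cells are resistant nor separate cultures for the replicates. The p-values therefore cover the spread between libraries alone, and that spread may be technical. The titles name 92.1 for every sample, while the cell line field counts up by 1 from sample to sample, and all were taken as 92.1 after the titles.

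Melanin is made inside melanosomes from tyrosine. Tyrosinase (TYR) performs the first and limiting oxidation, and its relatives DCT and TYRP1 act on later intermediates of brown-black eumelanin. PMEL forms the amyloid fibrils on which the pigment is laid down, and OCA2, SLC45A2 and SLC24A5 are transport proteins that set the ionic conditions under which tyrosinase works. In pigment cells many of these genes are known targets of the transcription factor MITF, which binds E-box letters of the M-box type (core CATGTG).

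The promoters of the melanin enzymes are shown because all 3 carry the same letters. In the comparison below, TYR and TYRP1 each had a log2 fold change of 0.28 and DCT of -2.04. Any part of these letters in those values was not tested. Each window runs from 250 bases before to 50 bases after the transcript start, is taken from RefSeq on GRCh38.p14 and is written 5′ to 3′ on the strand of its gene. Capitals mark CATGTG or its reverse complement CACATG. The windows are chr11:89177625-89177924 on the plus strand for TYR, chr9:12693135-12693434 on the plus strand for TYRP1 and chr13:94479633-94479932 on the minus strand for the proximal start of DCT.
TYR: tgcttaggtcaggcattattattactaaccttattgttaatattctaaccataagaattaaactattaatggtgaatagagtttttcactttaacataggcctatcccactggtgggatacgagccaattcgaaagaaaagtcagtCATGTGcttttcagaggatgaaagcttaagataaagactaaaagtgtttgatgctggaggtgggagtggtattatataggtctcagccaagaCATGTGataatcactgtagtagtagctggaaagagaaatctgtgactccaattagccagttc
TYRP1: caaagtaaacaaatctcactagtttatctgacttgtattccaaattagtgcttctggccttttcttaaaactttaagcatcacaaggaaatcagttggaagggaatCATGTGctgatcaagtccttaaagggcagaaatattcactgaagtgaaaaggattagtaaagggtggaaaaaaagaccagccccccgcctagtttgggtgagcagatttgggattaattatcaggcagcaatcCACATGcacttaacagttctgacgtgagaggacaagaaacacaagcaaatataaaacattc
DCT: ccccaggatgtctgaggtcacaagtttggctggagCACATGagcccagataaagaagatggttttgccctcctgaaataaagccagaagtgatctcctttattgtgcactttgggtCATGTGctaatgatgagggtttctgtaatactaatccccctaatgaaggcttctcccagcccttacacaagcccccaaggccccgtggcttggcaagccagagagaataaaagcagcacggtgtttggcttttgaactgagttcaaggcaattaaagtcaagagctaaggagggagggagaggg

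RefSeq windows were matched by symbol for 8 of the 10 members, with 9 windows in all because DCT has a proximal and a distal start. CATGTG, read on both strands, was found in 7 of the 9 windows, against 11.1% of all 35116 windows of the same length. The longer TCATGTG, which contains CATGTG, was found in 6 of the 9 windows, against 2.92% of all windows. CACGTG was found in 0 of the 9 windows, against 7.26% of all, and the general E-box CANNTG, which takes in the other motifs, in 8 of the 9, against 68.7% of all. CATGTG lay at bases -104 to -99 and -12 to -7 from the start of TYR, at -144 to -139 and -11 to -6 in TYRP1, and at -215 to -210 and -134 to -129 in DCT. GPNMB and GPR143 also held 2 copies each, and OCA2 and SLC24A5 held 1 each. The MLANA window and the distal DCT window held no CATGTG. A match is a description of sequence, not a binding site.

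**Figure D1:**
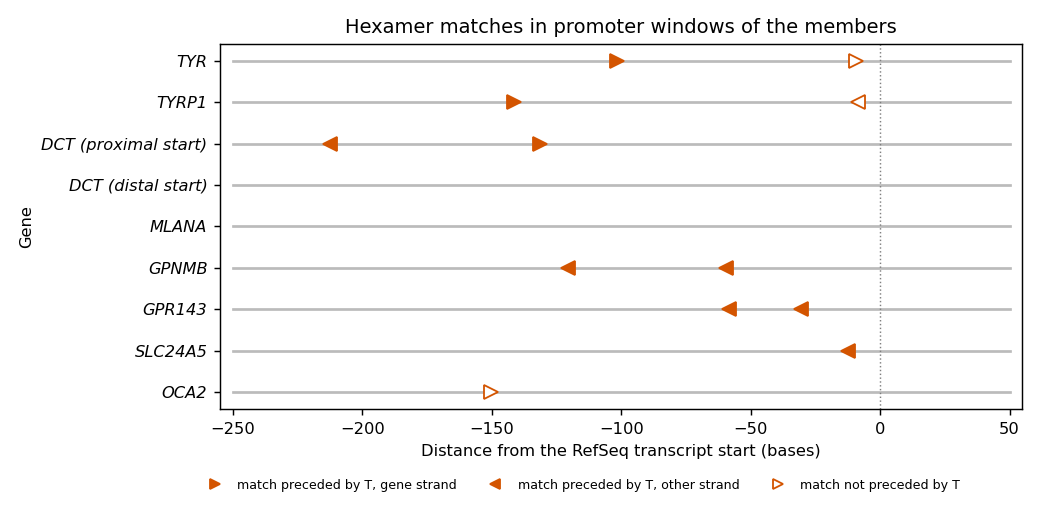
Matches of CATGTG in the promoter windows of 8 members, against distance in bases from the RefSeq transcript start. Arrowheads point right for the gene's strand and left for the other strand, filled where the match extends to TCATGTG; 7 of the 9 windows hold a match.

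Of the 10 genes, DCT differed most between resistant and parental cells, and the others had smaller log2 fold changes, from -0.68 for OCA2 to 0.28 for TYR and TYRP1. DCT stood at 0.501 ± 0.0218 FPKM (sequenced fragments corrected for the length of the transcript and the size of the library) in Res libraries and at 5.17 ± 0.410 FPKM in Ctrl libraries (SD, n = 2 each). OCA2 was the next lowest, at 17.3 ± 3.34 FPKM in Res and 28.2 ± 1.31 FPKM in Ctrl libraries (SD, n = 2 each). MLANA and SLC45A2 differed from the parental mean by -0.14 to -0.027 on the log2 scale in the Res libraries, and TYR, TYRP1 and SLC24A5 were higher in Res replicate 1 than in any other library. No member passed the adjustment over all 10271 genes tested (limma on log2(FPKM + 1), Benjamini-Hochberg, 0.05), a threshold that 0.0584% of all genes passed in either direction (0.0487% higher and 0.00974% lower in Res). The log2 fold changes below are on that scale, which understates differences of low genes.

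At an unadjusted limma p under 0.05 there were 2 members, DCT and OCA2, both lower in Res, against 10.2% of all genes lower and 6.06% higher at that threshold. This background depended on scaling. With values as deposited it held 622 genes higher in Res and 1045 lower, with median-of-ratios scaling 916 and 886 of them, and with quantile normalization 858 and 943. The Res and Ctrl libraries did not overlap for 4 of the 10 members, against 51.0% of all genes, so this count is not above the background. Of these 4, DCT, OCA2 and GPR143 were lower in both Res libraries (31.8% of all genes were) and TYRP1 was higher in both (19.1% of all genes were). In log2 fold change 3 members lay above 0 and 7 below, against 41.4% and 58.6% of all genes; median-of-ratios scaling put 5 members above 0 and 5 below. The median log2 fold change was -0.22 over the members and -0.079 over all genes. With 1 library left out, the members' median ran over a range of -0.33 (without Res replicate 1) to -0.032 (without Res replicate 2) and was -0.042 without Ctrl replicate 1, while that of all genes ran over -0.16 to -0.011. With 2 libraries a group, an exact permutation test cannot go below p = 0.333, so each p-value depends on the variance that limma pools across genes.

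The files hold FPKM without counts, so the depth of each library is unknown and no counting interval can be given. FPKM summed to 292736 and 293481 in Res and to 282602 and 283387 in Ctrl libraries. The 10 members together took 1.10% and 0.800% of that sum in Res and 0.972% and 0.874% in Ctrl libraries. The Res libraries resembled each other less than the Ctrl libraries did, with a correlation of log2 values across genes (which are not independent replicates) of 0.945 between the Res and 0.971 between the Ctrl libraries. The median absolute log2 gap between replicates over all genes was 0.29 in Res and 0.13 in Ctrl.

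**Figure D2:**
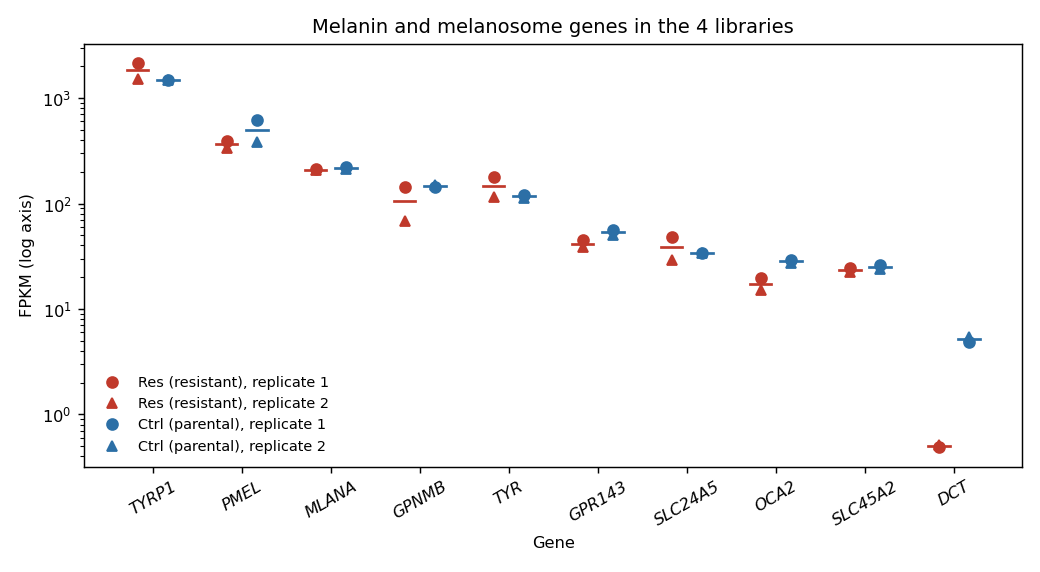
FPKM of the 10 members on a log axis in each library, with the group mean as a bar, Res left of Ctrl for each gene. TYRP1 is the highest in all 4 libraries (1484 to 2143 FPKM) and DCT the lowest, at 0.486 and 0.517 FPKM in Res and 4.88 and 5.46 FPKM in Ctrl libraries.

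The order of the levels differed between the groups at 2 pairs of neighbours, with TYR above GPNMB and SLC45A2 above OCA2 in Res, and the reverse in Ctrl libraries. TYRP1 led, at rank 14 of the 11650 genes by mean FPKM, followed by PMEL (rank 51) and MLANA (rank 121). TYR, GPNMB, GPR143 and SLC24A5 came next, OCA2 and SLC45A2 lay lower, and DCT closed the order at rank 7554. In Ctrl libraries no neighbours in this order had overlapping values. In Res libraries the values of TYR and GPNMB overlapped across libraries, although TYR was above GPNMB within each library. GPR143 and SLC24A5 overlapped there too and stood in opposite order in the 2 Res libraries. TYRP1 alone made up 66.8% and 64.5% of the members' summed FPKM in Res and 54.3% and 59.9% in Ctrl libraries.

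Among the melanin enzymes, TYR (ENSG00000077498.8_2, protein-coding, chr11:89177452-89295759 in GENCODE release 29 on GRCh38, as for all gene positions here) stood at 177 and 114 FPKM in Res and at 121 and 113 FPKM in Ctrl libraries. Res replicate 1 was high and Res replicate 2 lay between the Ctrl libraries, so the groups overlapped. TYR had a log2 fold change of 0.28 ± 0.23 SE (limma adjusted p = 0.577), which was -0.029 without Res replicate 1 and 0.60 without Res replicate 2.

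TYRP1 (ENSG00000107165.12_3, chr9:12685439-12710290), which stabilizes tyrosinase and takes part in eumelanin synthesis, stood at 2143 and 1514 FPKM in Res and at 1490.3 and 1484 FPKM in Ctrl libraries. Both Res libraries were above both Ctrl libraries, replicate 2 by little. For TYRP1 it was 0.28 ± 0.18 SE (limma adjusted p = 0.493), 0.025 without Res replicate 1, 0.53 without Res replicate 2 and -0.17 under quantile normalization, so its direction is not settled.

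DCT (ENSG00000080166.15_3, chr13:94436808-94479682), the dopachrome tautomerase that converts dopachrome to its carboxylated indole, stood at 0.486 and 0.517 FPKM in Res and at 4.88 and 5.46 FPKM in Ctrl libraries. The replicates of each group lay close together and the groups were far apart, with a Ctrl mean 10.3 times the Res mean. The log2 fold change was -2.04 ± 0.17 SE, rank 9 from the lowest of all 10271 genes, and it missed the threshold by little (limma adjusted p = 0.0544). DCT came narrowly under the threshold after rescaling to a common sum of 1000000 (log2 fold change -2.83, limma adjusted p = 0.0497). That sum is above the FPKM sum of every library, so the pseudocount of 1 weighed less there. Scaling and pseudocount thus changed together in this alternative. Over the alternatives that kept all 4 libraries, its limma adjusted p ran over a range of 0.0497 to 0.0949, the highest with a replicate block. Its log2 fold change ran over a range of -3.13 to -1.97 over all alternatives. A pseudocount of 0.1 gave a log2 fold change of -3.13. Both Res values lie under 1 FPKM, so DCT passed the filter on low values through its Ctrl libraries. In bulk RNA, fewer cells that express a gene and less mRNA per cell cannot be told apart.

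**Figure D3:**
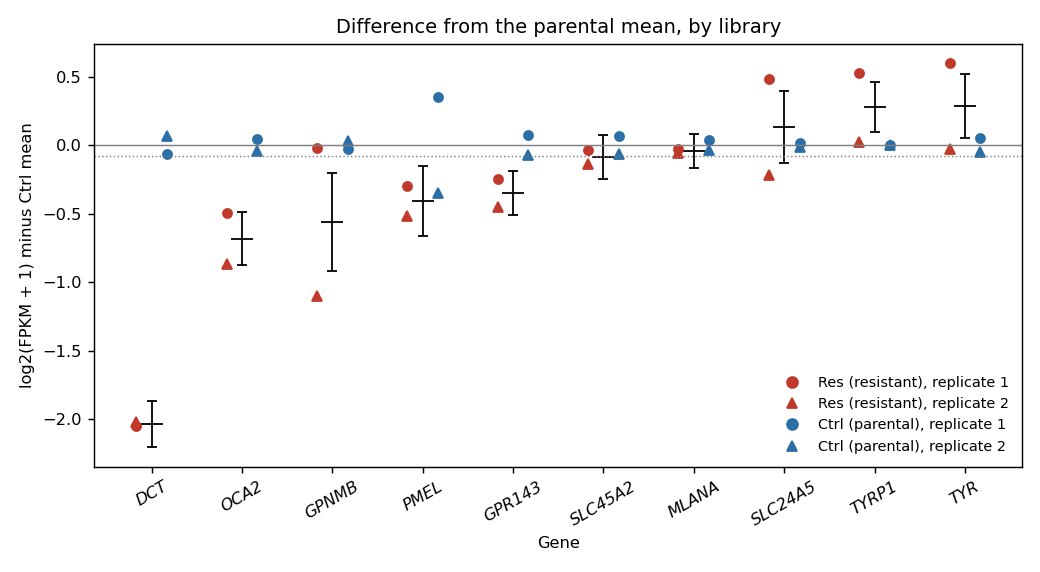
Difference of each library from the Ctrl mean on the log2(FPKM + 1) scale, for the 10 members ordered by log2 fold change. Black bars give the limma estimate ± SE and the dotted line the median of all tested genes (-0.079); DCT lies at -2.04 with both Res libraries together, while the Res libraries of GPNMB, SLC24A5, TYR and TYRP1 lie apart.

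Among the structural melanosome proteins, PMEL (ENSG00000185664.14_4, chr12:55954105-55973317) stood at 394.5 and 338 FPKM in Res and at 619.9 and 380.0 FPKM in Ctrl libraries. Here the parental replicates differed most, Ctrl replicate 1 being high and Ctrl replicate 2 below Res replicate 1, so the groups overlapped. PMEL had a log2 fold change of -0.41 ± 0.25 SE (limma adjusted p = 0.470), with -0.058 without Ctrl replicate 1 and -0.76 without Ctrl replicate 2. The gene shares 6016 bases with CDK2 on the opposite strand. CDK2, a cell cycle kinase, stood at 77.4 and 66.2 FPKM in Res and at 122 and 118 FPKM in Ctrl libraries (log2 fold change -0.74 ± 0.15 SE, limma adjusted p = 0.156). No source used here says whether counting used strand, so reads of the shared stretch are uncertain for both.

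MLANA (ENSG00000120215.9_2, chr9:5890802-5910606), a small membrane protein of early melanosomes that binds PMEL, had the log2 fold change nearest 0 among the members. It stood at 212 and 207 FPKM in Res and at 221 and 211 FPKM in Ctrl libraries. All 4 values lay within a narrow band and the groups overlapped. Its log2 fold change was -0.043 ± 0.12 SE (limma adjusted p = 0.884), and 0.061 under median-of-ratios scaling.

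GPNMB (ENSG00000136235.15_3, chr7:23235967-23275108), a glycoprotein related to PMEL that is found in melanosomes and lysosomes, stood at 143.6 and 67.6 FPKM in Res and at 143.5 and 149 FPKM in Ctrl libraries. Res replicate 1 lay between the Ctrl libraries and Res replicate 2 was low, so the groups overlapped. Only 4.90% of all tested genes had a log2 gap between the Res replicates at least as large as the 1.08 of GPNMB. The log2 fold change of -0.56 ± 0.36 SE (limma adjusted p = 0.479) thus rests on 1 library, being -0.025 without Res replicate 2 and -1.10 without Res replicate 1.

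GPR143 (ENSG00000101850.12_3, chrX:9725346-9786297), a G protein-coupled receptor of the melanosome membrane whose loss causes ocular albinism, stood at 44.6 and 38.7 FPKM in Res and at 56.0 and 50.7 FPKM in Ctrl libraries. Both Res libraries were below both Ctrl libraries. Its log2 fold change was -0.35 ± 0.16 SE (limma adjusted p = 0.357).

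Of the melanosome transport proteins, OCA2 (ENSG00000104044.15_3, chr15:27754875-28099358), which supports a chloride current that raises melanosomal pH, stood at 19.7 and 15.0 FPKM in Res and at 29.2 and 27.3 FPKM in Ctrl libraries. The groups did not overlap. OCA2 had a log2 fold change of -0.68 ± 0.19 SE (limma adjusted p = 0.220), and over its alternatives it ran over a range of -0.87 to -0.50 with adjusted p-values of 0.0571 to 0.887.

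SLC45A2 (ENSG00000164175.14_2, chr5:33944616-33984730), a sugar and proton transporter of the melanosome, stood at 24.2 and 22.5 FPKM in Res and at 26.0 and 23.8 FPKM in Ctrl libraries. The groups overlapped, with a log2 fold change of -0.089 ± 0.16 SE (limma adjusted p = 0.812), and 0.011 under median-of-ratios scaling. SLC24A5 (ENSG00000188467.10_2, chr15:48120972-48142672), a potassium-dependent sodium and calcium exchanger, stood at 47.8 and 29.003 FPKM in Res and at 34.2 and 33.6 FPKM in Ctrl libraries. Its Res libraries lay on either side of both Ctrl libraries, with a log2 fold change of 0.13 ± 0.26 SE (limma adjusted p = 0.828), which was -0.22 without Res replicate 1 and 0.48 without Res replicate 2. MLANA, GPR143 and SLC24A5 also share stretches with a protein-coding gene on the opposite strand (KIAA2026, TBL1X and MYEF2), each with values under 5 FPKM in all 4 libraries.

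The gap between the Res libraries had 1 direction in most members. In 9 of the 10 members Res replicate 1 was above Res replicate 2, as it was in 6789 of all 10271 tested genes, and the median gap was 0.30 over the members and 0.15 over all genes. DCT was the exception, with a gap of -0.030. MITF went the other way, at 9.64 FPKM in Res replicate 1 and 31.8 FPKM in Res replicate 2.

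Ratios within a library do not depend on scaling between libraries, and they set DCT apart from TYRP1. TYRP1 stood at 12.1 and 13.2 times TYR in Res and at 12.3 and 13.2 times TYR in Ctrl libraries, so this ratio overlapped between the groups although TYR itself ran from 113 to 177 FPKM. DCT stood at 0.00274 and 0.00452 of TYR in Res and at 0.0404 and 0.0484 of TYR in Ctrl libraries. OCA2 stood at 0.111 and 0.131 of TYR in Res and at 0.241 and 0.242 of TYR in Ctrl libraries. GPNMB stood at 0.811 and 0.591 of TYR in Res and at 1.19 and 1.32 of TYR in Ctrl libraries. Of the 9 other members, 8 were lower relative to TYR in both Res libraries than in both Ctrl libraries, against 51.3% of all genes, and 0 were higher, against 5.48% of all genes; the exception was TYRP1. With TYR as the shared divisor these ratios are not independent of each other, and no test was made on them. TYR had the highest log2 fold change of the members, so dividing by it fixes this count in part. MLANA, whose FPKM overlapped between the groups, is among the lower ones, at 1.20 and 1.81 of TYR in Res and 1.83 and 1.87 of TYR in Ctrl libraries.

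**Figure D4:**
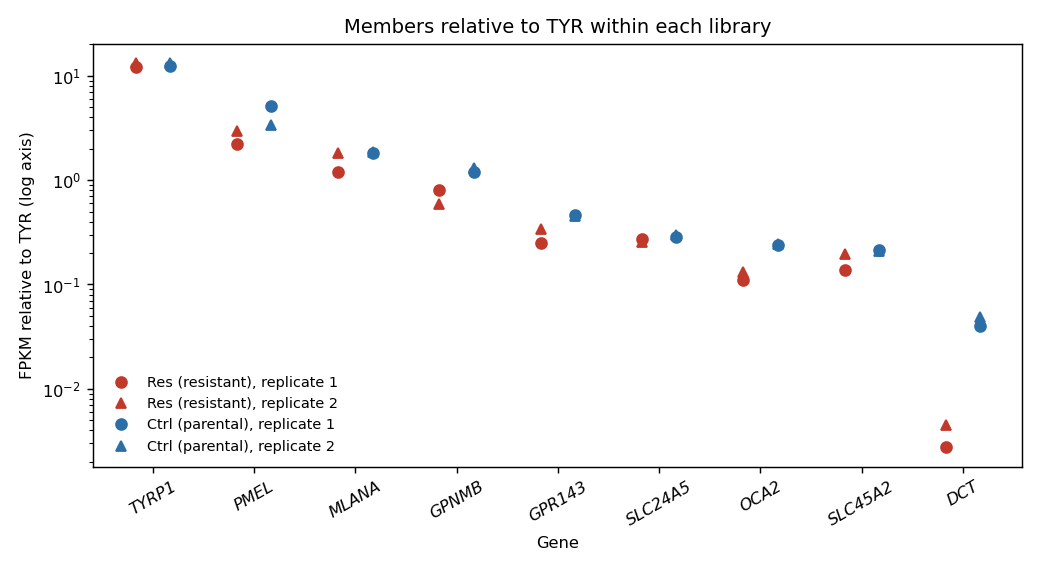
FPKM of 9 members divided by that of TYR in the same library, on a log axis, Res left of Ctrl for each gene. TYRP1 sits at 12.1 to 13.2 in all 4 libraries, while DCT and OCA2 sit lower in both Res libraries than in both Ctrl libraries.

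The genes whose values over the 4 libraries were most like those of DCT, by Euclidean distance of centred log2(FPKM + 1) values among the tested genes, were MTURN, ZNF284, GSTA3, CPM and CENPV, at distances of 0.12 to 0.38. MTURN stood at 1.15 and 1.24 FPKM in Res and at 7.94 and 9.40 FPKM in Ctrl libraries. CENPV stood at 2.78 and 3.62 FPKM in Res and at 13.0 and 12.7 FPKM in Ctrl libraries. ZNF284 and GSTA3 were listed at 0 in both Res libraries. CPM stood at 0.254 and 0.173 FPKM in Res and at 3.34 and 3.08 FPKM in Ctrl libraries. ZNF284, GSTA3 and CPM passed the filter on low values through the Ctrl libraries. The 5 genes were picked for having the pattern of DCT, so their differences are a description and no test of them is given.

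Regulators and receptors of the pigment lineage lay on both sides of 0. Of 18 genes on that list 15 were tested and 0 passed over all genes, with 2 higher and 3 lower in Res at an unadjusted limma p under 0.05 and a median log2 fold change of -0.036 (-0.091 without Res replicate 1 and 0.049 without Res replicate 2). SOX10, a transcription factor that acts on pigment genes beside MITF, stood at 54.9 and 54.3 FPKM in Res and at 91.8 and 73.3 FPKM in Ctrl libraries (limma adjusted p = 0.228). MITF stood at 9.64 and 31.8 FPKM in Res and at 35.3 and 37.4 FPKM in Ctrl libraries (limma adjusted p = 0.403), with a log2 fold change of -0.19 without Res replicate 1 and -1.81 without Res replicate 2. IRF4, a factor known to act on TYR with MITF, stood at 2.28 and 1.83 FPKM in Res and at 4.90 and 5.23 FPKM in Ctrl libraries (log2 fold change -0.99 ± 0.19 SE, limma adjusted p = 0.138). MC1R, the melanocortin receptor, had values of 0.858 and 0.904 FPKM in Res and 1.99 and 1.55 FPKM in Ctrl libraries, and the endothelin receptor EDNRB had 50.8 and 46.9 FPKM in Res and 27.9 and 24.6 FPKM in Ctrl libraries (limma adjusted p = 0.239 and 0.137).

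Genes that build and move melanosomes had medians close to 0 at the filter used. All 31 genes of the melanosome biogenesis complexes (BLOC, AP-3, AP-1 and their partners) were tested, 0 passed over all genes, and 1 was higher and 1 lower at an unadjusted limma p under 0.05, with a median log2 fold change of 0.018 (-0.024 without Res replicate 1 and 0.048 without Res replicate 2). RAB32, a small GTPase that delivers tyrosinase family cargo, stood at 129 and 145 FPKM in Res and at 73.7 and 59.2 FPKM in Ctrl libraries (log2 fold change 1.04 ± 0.17 SE, limma adjusted p = 0.122). DTNBP1, a BLOC-1 subunit, stood at 5.41 and 5.95 FPKM in Res and at 8.996 and 8.14 FPKM in Ctrl libraries. Of 14 transport genes 12 were tested and 0 passed, with 2 higher and 2 lower at that unadjusted threshold and a median of 0.057. At a minimum mean of 5 FPKM, which left 7 of them, that median was 0.23. RAB27A, which tethers melanosomes to the actin motor, had 2.95 and 2.45 FPKM in Res and 4.27 and 4.87 FPKM in Ctrl libraries, with RAB17 lower as well (log2 fold change -0.67 ± 0.17 SE), and SYTL2 (0.68 ± 0.26 SE) and KIF5B (0.50 ± 0.20 SE) higher. SYTL2 stood at 0.33 without Res replicate 1 and 1.02 without Res replicate 2, and KIF5B at 0.30 without Res replicate 2.

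Of 14 genes on the list for PMEL processing and fibril formation 12 were tested and 0 passed, with 0 higher and 1 lower at an unadjusted limma p under 0.05 and a median log2 fold change of -0.14 (-0.29 without Res replicate 1 and -0.060 without Res replicate 2). ADAM10, a membrane protease, stood at 6.69 and 4.89 FPKM in Res and at 11.2 and 11.3 FPKM in Ctrl libraries (-0.87 ± 0.21 SE, limma adjusted p = 0.179). Of 24 ion, copper and amino acid transport genes 21 were tested and 0 passed, with 2 higher and 2 lower at that threshold and a median of -0.025 (-0.077 without Res replicate 1 and 0.13 without Res replicate 2). The endolysosomal cation channel TPCN1 had 2.29 and 1.83 FPKM in Res and 0.599 and 0.707 FPKM in Ctrl libraries, and the cystine transporter SLC7A11 had 2.30 and 1.62 FPKM in Res and 0.583 and 0.856 FPKM in Ctrl libraries. Both lay under 1 FPKM in the Ctrl libraries and passed the filter through the Res libraries. ATP6AP1, an accessory subunit of the proton pump, stood at -0.70 ± 0.18 SE on the log2 scale and the peptide and histidine transporter SLC15A4 at -0.63 ± 0.19 SE.

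Other genes known from pigment cells counted 3 higher and 9 lower at an unadjusted limma p under 0.05 among 22 tested of 26 (medians of -0.087 for the list and -0.079 for all genes), and 0 past the adjustment over all genes. Without Res replicate 1 these medians were -0.43 for the list and -0.16 for all genes. Over all genes 6.06% were higher and 10.2% lower at an unadjusted limma p under 0.05. CDH3 and S100B, both counted as lower, lay under 1 FPKM in both Res libraries. They passed the filter on low values through the Ctrl libraries, so the count of lower genes is fixed in part by it. CDK2, whose reads are uncertain, was counted as lower too. CAPN3, a calpain, stood at 4.54 and 3.13 FPKM in Res and at 10.9 and 10.3 FPKM in Ctrl libraries. The proteoglycan BCAN stood at 84.7 and 87.2 FPKM in Res and at 232 and 189 FPKM in Ctrl libraries (-1.28 ± 0.16 SE, limma adjusted p = 0.0788). ABCB5, a transporter, had 7.40 and 5.45 FPKM in Res and 2.36 and 2.15 FPKM in Ctrl libraries, and DDT, the D-dopachrome tautomerase, had 60.4 and 59.9 FPKM in Res and 28.6 and 28.3 FPKM in Ctrl libraries. DDT is unrelated to DCT in sequence and acts on the other stereoisomer of dopachrome. All 25 lysosome genes were tested and 0 passed, with 4 higher and 5 lower at that threshold and a median of 0.11, which was -0.16 without Res replicate 1. The protease CTSL (-1.25 ± 0.26 SE), the sialidase NEU1 (-0.78 ± 0.29 SE) and the GM2 activator GM2A (-0.72 ± 0.22 SE) were lower. Without Res replicate 2, NEU1 stood at -0.40 and GM2A at -0.46.

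**Figure D5:**
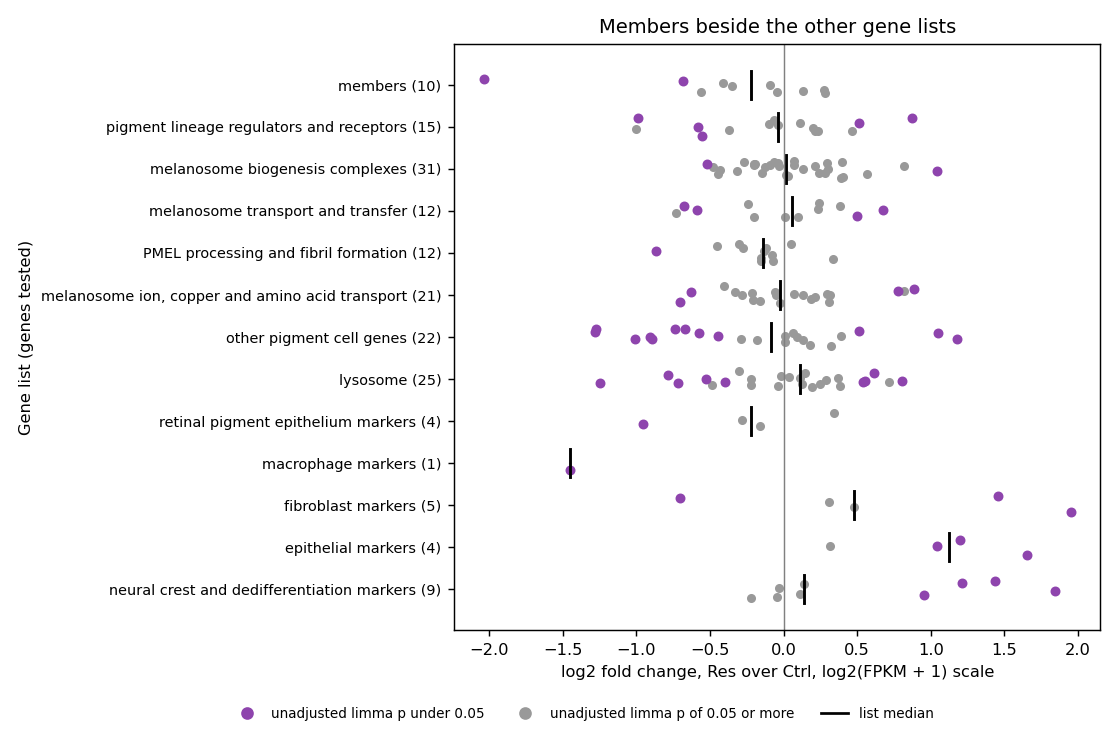
Log2 fold change of each tested gene, Res over Ctrl, for the 10 members and 12 other gene lists, with the list median as a black bar. Purple points have an unadjusted limma p under 0.05; among the members these are DCT and OCA2.

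PMEL, MLANA, TYR and SOX10, markers of a pigment cell, were present in both groups at the values above. PMEL, MLANA and TYR overlapped between the groups, while SOX10 was lower in both Res libraries than in both Ctrl libraries. DCT and MITF were lower in both Res libraries as well, DCT at 0.486 and 0.517 FPKM and MITF at 9.64 and 31.8 FPKM. Of 15 retinal pigment epithelium markers 6 had a value and 4 were tested, with 0 past the adjustment and 1 lower at an unadjusted limma p under 0.05 (RLBP1, 0.722 and 0.758 FPKM in Res and 2.49 and 2.24 FPKM in Ctrl libraries), and their summed FPKM was 94.3 and 95.1 in Res and 143 and 74.3 in Ctrl libraries. Most of that sum was SERPINF1 (55.7 and 56.3 FPKM in Res and 109 and 42.8 FPKM in Ctrl libraries) and CST3 (33.7 and 35.5 FPKM in Res and 27.9 and 26.2 FPKM in Ctrl libraries), secreted proteins made by many cell types. TTR, another marker, was listed at 0 in 1 Ctrl library. The other 9 of the 15, RPE65 and LRAT among them, had no value and so were not analysed here. Of 16 macrophage markers, cells in which GPNMB is also known, only CD68 had a value, at 7.24 and 4.97 FPKM in Res and 21.0 and 15.7 FPKM in Ctrl libraries (-1.45 ± 0.25 SE, limma adjusted p = 0.124), and the other 15 were not analysed here.

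Some markers of fibroblasts, epithelia and neural crest had an unadjusted limma p under 0.05, and the part of these and of the pigment epithelium and macrophage markers in the members' values was not tested. Of 13 fibroblast markers 6 had a value and 5 were tested, with 2 higher and 1 lower at an unadjusted limma p under 0.05 and a summed FPKM of 37.1 and 32.1 in Res and 32.9 and 31.7 in Ctrl libraries. S100A4 had 7.30 and 7.46 FPKM in Res and 0.830 and 1.56 FPKM in Ctrl libraries, while on the log2 scale ACTA2 stood at 1.45 ± 0.21 SE and FBLN1 at -0.71 ± 0.17 SE. Of 15 epithelial markers 5 had a value and 4 were tested, with 3 higher at that threshold (KRT8, KRT18 and KRT19) and a summed FPKM of 22.4 and 29.1 in Res and 11.3 and 13.1 in Ctrl libraries. KRT8, KRT19 and ACTA2, like SYTL2 above, lay under 1 FPKM in both Ctrl libraries and passed the filter on low values through the Res libraries, while MC1R and RLBP1 passed it through the Ctrl libraries, so counts that include them are fixed in part by that filter. Of 17 neural crest and dedifferentiation markers 10 had a value and 9 were tested, with 4 higher at that threshold (FN1, ERBB3 and NES among them) and a summed FPKM of 174 and 159 in Res and 133 and 126 in Ctrl libraries. FN1, fibronectin, stood at 9.02 and 5.12 FPKM in Res and at 1.12 and 1.25 FPKM in Ctrl libraries. None of these passed over all genes (lowest limma adjusted p = 0.0781, for S100A4).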

How the data were processed

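The authors deposited FPKM, 1 value per gene and library, per the file headers. Per the submitters' processing notes the build was hg38. The aligner, the counting program, the annotation and any use of strand go unnamed in the sources used here, and 11551 of 11650 identifiers carry a suffix of the kind GENCODE adds to annotation mapped to the older human build. The smallest larger group mean was 0.5009 FPKM, so low genes seem to have been removed before deposit. Symbols came from a table of current names for 11575 genes. Gene positions are those of GENCODE release 29 on GRCh38.

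FPKM are not counts, so no count model was used. Values were taken as log2(FPKM + 1), the test took genes whose mean over the 4 libraries reached 1 FPKM, and Res was compared with Ctrl in limma 3.58.1 (R 4.3.3, variance trend, two-sided, Benjamini-Hochberg over all genes at 0.05); the test was tried on simulated data first. Figures were made in Python 3.11.15. Depth is unknown, and 2 libraries a group limit the precision. The members and lists were chosen with earlier results of these data known. From each other list, up to 4 genes with an unadjusted limma p under 0.05 and groups that did not overlap were named. CDK2, KIAA2026, TBL1X, MYEF2, TTR, SERPINF1, CST3, RPE65, LRAT, CDH3 and S100B were named after the values were seen. Some genes that this rule selects are not reported here. Alternatives changed the pseudocount, filter, scaling, variance trend, library weights, replicate block and the libraries used. The common sum was 1000000, above the FPKM sums, which also lowered the weight of the pseudocount.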

Additional observations from a re-analysis of the deposited data

How the results depend on the processing

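Over all genes, limma called 5 higher and 1 lower. The count of higher genes was 3 with a pseudocount of 0.1, with median-of-ratios scaling, with quantile normalization and with library weights, and leaving out 1 library at a time gave a range of 0 to 19. The count of lower genes was 2 with a pseudocount of 0.5 and 3 with libraries set to a common sum, and leaving out 1 library gave 0 to 10. No member was called, except DCT as the 1 lower member on that common-sum scale and without either Ctrl library; leaving out 1 library gave 0 to 1. Median-of-ratios scaling turned the medians of the lists of pigment regulators (0.067), ion and amino acid transport (0.062) and other pigment cell genes (0.014) above 0. The members' median log2 fold change of -0.22 had a range of -0.33 to -0.032 with 1 library left out. MLANA and SLC45A2 changed sign under median-of-ratios scaling (0.061 and 0.011), TYRP1 under quantile normalization (-0.17), and TYR and SLC24A5 without Res replicate 1 (-0.029 and -0.22; up to 0.60 and 0.48 with 1 other library left out); the cause was not tested. DCT, OCA2, GPR143, GPNMB and PMEL kept a negative sign in every alternative run, and DCT had no value at a minimum mean of 5 FPKM. A left-out library leaves 1 in its group, which is then assumed to vary like the other group.

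The labels do not say whether libraries with the same replicate number share a culture or a preparation. The deviations of same-numbered libraries correlated at -0.071 over genes, which cannot settle this with 2 libraries a group. With the number as a replicate block, limma called 4 genes higher, 1 lower and 0 members (DCT adjusted p = 0.0949).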
